A study of Mus musculus with 27 samples.

Results

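RNA of 7 hv and 7 cr B-cell lymphomas was compared, 14 of the 27 samples of a study of c-myc Igh transgenic mouse lines. The members were taken by the line written in each sample title. The hv lymphomas came from lung (T1, T5, T7, T14 and T16) and peripheral lymph node (T8 and T15), and the cr lymphomas came from lung (T9, T14 and T16) and mesenteric lymph node (T1, T6, T20 and T35). The other samples are 4 lymphomas of a line named co, 1 lung lymphoma (T39) that is titled hv but described as co and was left out, and 8 samples of non-malignant spleen B cells from wt, hv, cr and co mice, kept resting or given lipopolysaccharide (LPS) for 2 days. All lymphoma and spleen cells had been enriched for the B-cell surface form of CD45, B220. The labels do not say what hv and cr stand for, how old the mice were, or whether each tumour came from its own mouse, so the p-values below measure only the spread between these samples.

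Lung is the only site that both lines share. Peripheral nodes occur only among the hv and mesenteric nodes only among the cr lymphomas, so outside lung the line and the lymph node site cannot be told apart. The comparison was therefore repeated with the 5 hv and 3 cr lung lymphomas alone. Sample descriptions are written in 2 styles, a joined one for the hv lung tumours T1, T5 and T14 and all 3 cr lung tumours, and a separated one for the other 4 hv and 4 cr lymphomas. What the style marks is not given.

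MYC is a transcription factor that drives ribosome production, metabolism and cell division, and its placement under immunoglobulin heavy-chain control is a classic cause of B-cell lymphoma. The NF-kappaB factors switch on survival and activation genes in B cells after signals through CD40, Toll-like receptors and the B-cell receptor, while interferons switch on antiviral and antigen-presentation genes. In bulk RNA of this kind, fewer cells of a type and less RNA per cell cannot be told apart.

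The B-cell label held against its markers, with levels in TPM, a share of the library's transcripts scaled by their length. The 10 B-cell markers, which include Cd79a, Ms4a1 and Pax5, summed to 5015 to 9794 TPM in hv lymphomas (median 5760) and to 2877 to 5875 TPM in cr lymphomas (median 4158). The libraries held about 11531400 to 23689600 read pairs, a depth estimated from the steps between low TPM values. Of the 15 T-cell markers only Cd3e was below 1 TPM in all 14 lymphomas, and 11 reached 1 TPM in at least 4 of them. The 15 summed to 94.7 to 296 TPM in hv and 131 to 330 TPM in cr lymphomas. In 2 cr mesenteric lymphomas a few transcripts took up an unusual share of the library: Gm20594 held 34.3% of TPM in T35, and T6 had 3.08% in Gm10800 and 22.8% in Gm20594. Gm20594 held 13.66% to 21.19% in the hv lymphomas and 15.74% to 22.91% in the other 5 cr lymphomas.

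No gene separated the lines after correction. With all sites, 12034 genes with at least 1 TPM in at least 4 lymphomas were tested with limma on log2(TPM + 1), and 0 of them (0%) had a Benjamini-Hochberg adjusted p under 0.05, the smallest adjusted p from limma being 0.37. At an unadjusted limma p under 0.05 there were 1440 genes (12% of those tested), 1366 with higher values in hv (11.4%) and 74 with lower values (0.615%). Of the tested genes 798 (6.63%) reached 1 TPM in at least 4 hv but fewer than 4 cr lymphomas and 216 (1.79%) in at least 4 cr but fewer than 4 hv, and since such genes entered through 1 line, counts that rest on them are descriptions only. In no gene were all hv lymphomas above, or all below, every cr lymphoma (0% each way). The median log2 fold change of all tested genes, hv over cr, was 0.21, so the fold changes below should be read against that shift.

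The one-sided split depends on the scale. With median-of-ratios scaling the shift was -0.03 and the genes at unadjusted p under 0.05 numbered 505 with higher and 426 with lower values in hv, so that 54.24% were higher, against 94.86% with TPM as deposited. TPM rescaled without Gm20594, Gm10800, immunoglobulin and haemoglobin genes gave 1131 higher and 115 lower. One library also carried weight: without the hv lung lymphoma T7, 7 genes passed the adjusted threshold in limma, all higher in hv. They were Relb, Shisa5, Ifit3, Ms4a6b, Tank, Slc25a13 and Agpat3, with log2 fold changes from 1.34 for Agpat3 to 3.12 for Shisa5 and adjusted p-values from 0.0194 to 0.0488.

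The genes with the smallest p and higher values in hv include several that act in B cells or myeloid cells. Ms4a6b, a member of the family of the B-cell antigen CD20, had 5.68 to 37.5 TPM in hv lymphomas (median 17.4) and 2.31 to 8.87 TPM in cr lymphomas (median 3.53). All hv lymphomas except T7 were above every cr lymphoma, and the log2 fold change was 1.86 ± 0.36 (SE; limma unadjusted p = 0.0001, adjusted p = 0.37). Shisa5, an endoplasmic reticulum protein induced by p53 and by interferon, ranged from 22.4 to 426 TPM in hv (median 161) and from 10.5 to 33.5 TPM in cr lymphomas (median 20.4), again with 6 of 7 hv above all cr. Slc28a2, a nucleoside transporter, had 24.2 to 96.6 TPM in hv (median 43.8) and 7.31 to 25.8 TPM in cr lymphomas (median 20.3). Dock10, a guanine nucleotide exchange factor that is interleukin-4 responsive in B cells, had a log2 fold change of 2.73 ± 0.64, Wfdc17 one of 2.23 ± 0.50, Cybb, a subunit of the phagocyte NADPH oxidase, one of 2.18 ± 0.52, and Il27ra, the receptor chain for interleukin 27, one of 1.79 ± 0.43. None of these genes passed the adjusted threshold with all 14 lymphomas.

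Fewer genes had lower values in hv. Elovl6, a fatty acid elongase, had 0.778 to 9.69 TPM in hv lymphomas (median 3.44) and 8.48 to 16.8 TPM in cr lymphomas (median 9.12). The ranges overlapped through the hv lung tumours T14 and T7, and the log2 fold change was -1.42 ± 0.38 (limma unadjusted p = 0.00177, adjusted p = 0.37). Prdx6, a peroxiredoxin, had 40.2 to 106 TPM in hv (median 75.8) and 91.3 to 222 TPM in cr lymphomas (median 116). Ccr7, the chemokine receptor that guides lymphocytes into the T zones of lymph nodes, had 10.7 to 68.3 TPM in hv (median 24.9) and 31.5 to 93.2 TPM in cr lymphomas (median 52.6), with a log2 fold change of -1.12 ± 0.39. Prodh, the mitochondrial proline dehydrogenase, had 3.61 to 56.7 TPM in hv (median 10.5) and 7.34 to 45.4 TPM in cr lymphomas (median 41.3). Emid1 (-2.56 ± 0.85), Hmgcll1 (-1.62 ± 0.58), Pde4c (-0.95 ± 0.34) and Pim3 (-0.66 ± 0.24), a serine/threonine kinase of the Pim family, complete the 8 with the smallest p, and none passed the adjusted threshold.

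NF-kappaB genes stood higher in hv lymphomas as a list. Of 24 listed genes 21 were tested, 15 of them had an unadjusted limma p under 0.05 with higher values in hv (11.4% of all genes did) and 0 had lower values, with a list median log2 fold change of 1.23. The list level of a lymphoma was its mean log2 difference from the mean of the 14, less its own median over all tested genes. That level was 1.797, 1.405 and 1.602 in hv T16, T8 and T15. The other 4 hv lymphomas were at -0.698 to 0.146, within the cr range of -1.025 to 0.204. Relb, the subunit of the alternative NF-kappaB pathway, had 16.4, 11.8, 17.4, 3.04 and 16.5 TPM in the hv lung tumours T1, T5, T14, T7 and T16 and 35.6 and 18.2 TPM in the hv node tumours T8 and T15, against 6.24, 3.89 and 7.53 TPM in the cr lung tumours T9, T14 and T16 and 3.74, 3.19, 2.75 and 4.43 TPM in the cr node tumours T1, T6, T20 and T35. The groups overlapped only through hv T7, which lay below 6 of the 7 cr lymphomas. The log2 fold change of Relb was 1.53 ± 0.37 (limma unadjusted p = 0.00074, adjusted p = 0.37). Nfkb2, the partner of RelB, had 4.84 to 87.1 TPM in hv (median 19.4) and 1.37 to 10.7 TPM in cr lymphomas (median 4.00), with a log2 fold change of 1.93 ± 0.53. Rela and Nfkb1, subunits of the classical pathway, had smaller differences, 0.54 ± 0.23 and 0.82 ± 0.33, and Rel, the third classical subunit, had a log2 fold change of 0.51.

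Feedback inhibitors and co-activators of the pathway lay on the same side. Bcl3, an atypical inhibitor protein that acts with p50 and p52 in the nucleus, had 0.611 to 43.5 TPM in hv (median 9.42) and 0.0837 to 2.96 TPM in cr lymphomas (median 0.761), with a log2 fold change of 2.33 ± 0.60. Nfkbie, which holds NF-kappaB in the cytoplasm, had 5.21 to 26.9 TPM in hv (median 16.2) and 1.91 to 9.67 TPM in cr lymphomas (median 5.84), with 6 of 7 hv above all cr. Nfkbia had 35.1 to 79.6 TPM in hv (median 73.5) and 18.8 to 95.6 TPM in cr lymphomas (median 30.7), and the highest value belonged to the cr lung tumour T9. Tnfaip3, another brake on the pathway, had a log2 fold change of 0.60 and an unadjusted limma p of 0.274.

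Surface and survival genes that NF-kappaB is known to switch on were among the 15. Cd40, the receptor for T-cell help, had 1.28 to 56.2 TPM in hv (median 19.3) and 1.02 to 21.9 TPM in cr lymphomas (median 2.29), with a log2 fold change of 2.15 ± 0.69. Cd83, an activation marker, had 1.43 to 91.4 TPM in hv (median 21.4) and 0.376 to 40.9 TPM in cr lymphomas (median 1.04), and 6 of the 7 cr lymphomas were at 2.52 TPM or less. Ltb, which encodes lymphotoxin beta, had 1.05 to 425 TPM in hv (median 50.8) and 0.808 to 9.99 TPM in cr lymphomas (median 1.62). Birc3, an inhibitor of apoptosis, had 56.7 to 165 TPM in hv (median 141) and 34.8 to 123 TPM in cr lymphomas (median 53.7), with all hv but T7 above every cr. Traf1 and Bcl2a1b had log2 fold changes of 1.76 ± 0.73 and 2.35 ± 0.85, but the Bcl2a1 genes are near-identical copies, so how reads were divided among them is uncertain. Of the 21 tested members 2 entered through hv alone. Within lung the list median was 0.73 and 0 of 20 tested members had an unadjusted limma p under 0.05, beside 0.997% of all genes tested in lung. That median was 0.34 without hv T16 and 1.02 without hv T7, and 5 of 20 reached an unadjusted p under 0.05 without T7. With the 3 sites in the fit beside the line 0 of 21 did, beside 1.18% of all genes.

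**Figure D1:**
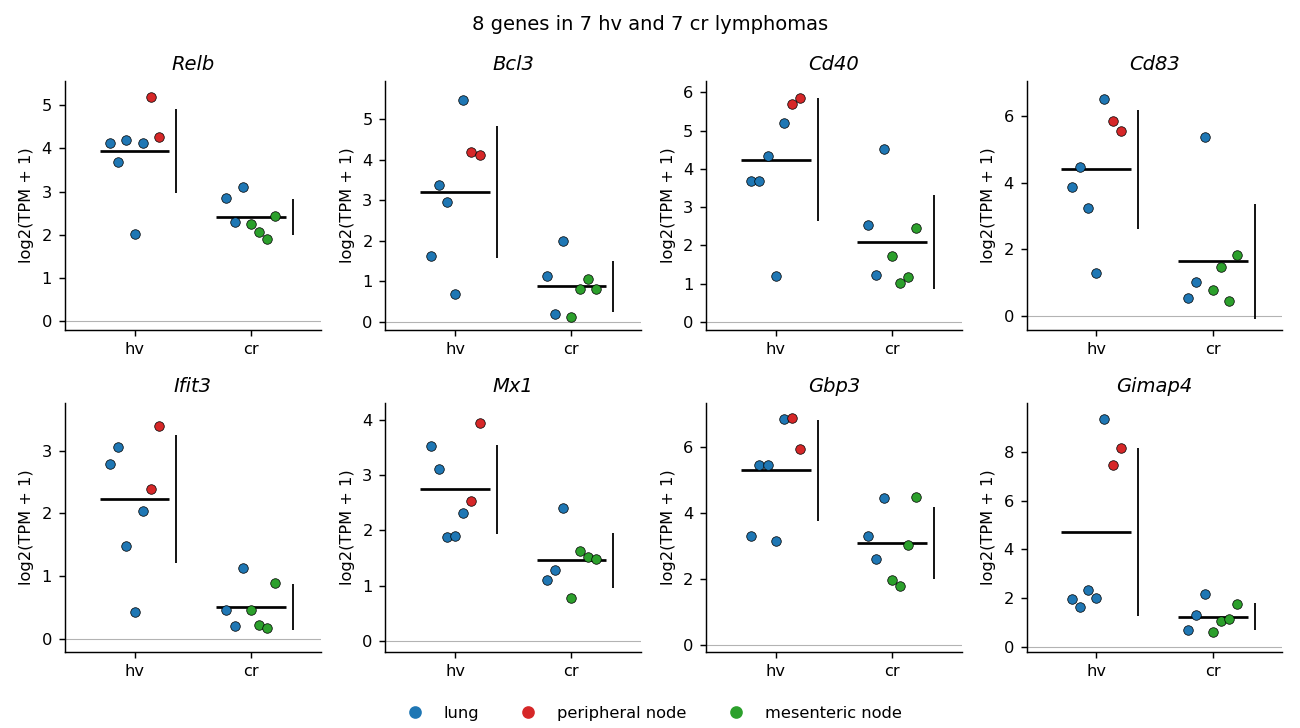
Level of 8 genes, as log2(TPM + 1), in each of the 7 hv and 7 cr lymphomas. Points are lymphomas coloured by site, the horizontal line is the mean of the line and the bar beside it ± 1 SD; for Relb all hv points but the lung tumour T7 lie above every cr point, and for Gimap4 the 3 highest hv points stand far above the rest.

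The promoters of 2 of these inhibitor genes are shown because both carry several matches to a short kappaB motif. The 250 bases before the gene start were taken from RefSeq (GRCm38.p6) and searched on both strands for GGGNNNNNCC, where N is any base, with capitals marking matches and overlapping matches merged. Bcl3 (chr7:19822756-19823005, minus strand) and Nfkbie (chr17:45555450-45555699, plus strand) have 3 matches each.
Bcl3: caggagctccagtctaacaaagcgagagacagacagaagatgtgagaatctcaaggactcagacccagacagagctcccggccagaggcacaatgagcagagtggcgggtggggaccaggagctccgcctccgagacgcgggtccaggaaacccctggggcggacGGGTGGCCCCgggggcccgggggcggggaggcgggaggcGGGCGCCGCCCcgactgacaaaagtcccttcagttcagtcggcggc
Nfkbie: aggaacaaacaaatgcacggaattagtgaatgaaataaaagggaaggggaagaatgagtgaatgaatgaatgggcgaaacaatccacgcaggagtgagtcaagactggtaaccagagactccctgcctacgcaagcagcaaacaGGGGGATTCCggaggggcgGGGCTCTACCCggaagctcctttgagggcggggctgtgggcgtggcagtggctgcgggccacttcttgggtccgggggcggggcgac
Of the 24 listed NF-kappaB genes, 19 had a promoter in the table and 16 of those held a match, while 45.8% of all 32851 promoter windows did. A match is a run of letters and says nothing of whether a factor binds there.

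Interferon response genes, many of them at low levels, had higher values in hv lymphomas. Of 25 listed genes 24 were tested, 18 had an unadjusted limma p under 0.05 with higher values in hv (11.4% of all genes did) and 0 with lower values. Of these 24, however, 12 entered the test through hv alone, so the count does not stand as support. Among the 9 members with a mean of at least 5 TPM over the 14 lymphomas, 5 had an unadjusted p under 0.05 with higher values in hv. Of all such genes 11.1% did in either direction, and the median log2 fold change of the 9 was 1.14. High hv values alone can also reach that mean, so this count is a description as well. Ifit3, an antiviral protein that binds foreign RNA with its partners, had 5.93, 7.30, 1.79, 0.348 and 3.10 TPM in the hv lung tumours T1, T5, T14, T7 and T16 and 4.22 and 9.497 TPM in the hv node tumours T8 and T15, against 0.379, 0.160 and 1.20 TPM in the cr lung tumours T9, T14 and T16 and 0.376, 0.169, 0.135 and 0.857 TPM in the cr node tumours T1, T6, T20 and T35. All hv lymphomas but T7 were above every cr lymphoma, at low levels in both lines, and the log2 fold change was 1.71 ± 0.39 (limma unadjusted p = 0.000418, adjusted p = 0.37). Mx1, an antiviral GTPase, had 2.66 to 14.4 TPM in hv (median 4.78) and 0.710 to 4.28 TPM in cr lymphomas (median 1.79). Irf9, a transducer of the response to type I interferon, had 12.0 to 46.2 TPM in hv (median 24.4) and 3.35 to 17.8 TPM in cr lymphomas (median 10.6), with a log2 fold change of 1.14 ± 0.37. Irf7, which amplifies type I interferon production, was one of the 6 members without an unadjusted p under 0.05 (0.84 ± 0.44, limma unadjusted p = 0.0768).

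Sensors, feedback genes and effectors of the list differed in the same direction. Ifih1, the double-stranded RNA sensor MDA5, had 0.217 to 10.99 TPM in hv (median 4.76) and 0.0799 to 2.87 TPM in cr lymphomas (median 0.552). Usp18, which removes ISG15 and dampens interferon signalling, had 0.355 to 6.61 TPM in hv (median 1.56) and 0.0673 to 1.56 TPM in cr lymphomas (median 0.219). Oas1a, an oligoadenylate synthetase, had a log2 fold change of 1.61 ± 0.60 and Ifi27l2a one of 1.65 ± 0.68. Among the family of interferon-induced IFIT and OAS genes, 8 of 10 tested had an unadjusted p under 0.05 with higher values in hv, but 7 of the 10 entered through hv alone. Leaving out single tumours moved the count of the 24 interferon genes between 13 and 20. Within lung 1 of 18 did (Ifit3, unadjusted p = 0.042), beside 0.997% of all genes. The list median in lung was 0.73, and 0 to 4 members did when a lung tumour was left out. With the 3 sites in the fit beside the line, 1 of 24 did, beside 1.18% of all genes.

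Guanylate binding proteins, interferon-induced GTPases that attack vacuoles of intracellular microbes, had an unadjusted limma p under 0.05 with higher values in hv in all 6 tested members. Of the 6, however, 4 entered the test through hv alone, among them Gbp2b and Gbp4 with at least 1 TPM in 5 hv and 1 cr lymphoma each, so the count does not stand as support. Only 3 members had a mean of at least 5 TPM over the 14 lymphomas, which high hv values alone can also reach. Gbp3 had 7.98 to 116 TPM in hv (median 43.0) and 2.45 to 21.3 TPM in cr lymphomas (median 7.24), Gbp2 had 0.837 to 84.8 TPM in hv (median 11.2) and 0.451 to 13.5 TPM in cr lymphomas (median 1.18), and Gbp7 had 0.525 to 24.2 TPM in hv (median 12.4) and 0.352 to 3.32 TPM in cr lymphomas (median 0.736). The 3 highest hv values of Gbp3 belonged to T16, T8 and T15, and the lowest 2 to T7 and T1. These genes lie in clusters of similar copies on chromosomes 3 and 5, which makes the division of reads among them uncertain. Within lung 0 of 5 members had an unadjusted p under 0.05 (0.997% of all genes did), and with the 3 sites in the fit 0 of 6 did (1.18% of all genes).

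Promoters of an interferon response gene and of a guanylate binding protein are shown for the letters GAAANNGAAA, the core of the interferon-stimulated response element. The search covered both strands of the same RefSeq windows, matches are in capitals, and no match overlaps another here. Ifit3 (chr19:34583279-34583528, plus strand) has 2 matches and Gbp2 (chr3:142620413-142620662, plus strand) has 1.
Ifit3: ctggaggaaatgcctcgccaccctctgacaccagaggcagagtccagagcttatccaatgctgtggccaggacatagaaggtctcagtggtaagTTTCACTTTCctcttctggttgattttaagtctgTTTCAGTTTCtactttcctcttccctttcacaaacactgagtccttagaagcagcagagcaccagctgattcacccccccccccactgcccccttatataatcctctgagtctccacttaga
Gbp2: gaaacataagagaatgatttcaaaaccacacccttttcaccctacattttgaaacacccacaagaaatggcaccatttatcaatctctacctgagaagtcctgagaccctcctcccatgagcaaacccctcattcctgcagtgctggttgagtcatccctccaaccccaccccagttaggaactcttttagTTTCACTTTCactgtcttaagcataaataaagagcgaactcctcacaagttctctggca
Of the 25 listed interferon genes, 17 had a promoter in the table and 8 of those held a match in at least 1 of their windows. Of all single windows 2.977% did, a share of windows and not of genes.

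MHC class I presentation genes had higher values in hv lymphomas in 13 of 20 tested members at an unadjusted limma p under 0.05, beside 11.4% of all genes. Lower values at that threshold were found in 0, and the median log2 fold change was 0.81. The peptide pump Tap1 had 33.7 to 131 TPM in hv (median 75.2) and 19.3 to 42.5 TPM in cr lymphomas (median 34.8), with 5 of 7 hv above all cr. B2m, the light chain of all class I molecules, had 459 to 1833 TPM in hv (median 1044) and 344 to 728 TPM in cr lymphomas (median 552). The non-classical class I genes H2-T22 and H2-Q7 had log2 fold changes of 1.04 ± 0.27 and 2.21 ± 0.82, and Q-region copies are similar enough that their reads may have been shared. Removing the hv node tumour T15 left 8 of 20 members at an unadjusted p under 0.05, beside 8.29% of all genes in either direction. Median-of-ratios scaling left 6, beside 7.78% of all genes in either direction. Within lung 0 of 20 reached it, beside 0.997% of all genes. With the 3 sites in the fit 0 of 20 did, beside 1.18% of all genes. Of 12 tested MHC class II genes 3 (25%) had an unadjusted p under 0.05, all with higher values in hv, beside 11.4% of all genes. They were H2-Oa, a brake on peptide loading (1.84 ± 0.61), Cd74, the invariant chain (0.96 ± 0.40), and H2-Ob (0.71 ± 0.33). Within lung 0 of 12 class II genes did.

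The GIMAP GTPases, which regulate lymphocyte survival, had an unadjusted limma p under 0.05 in 6 of 8 members with higher values in hv (11.4% of all genes did), and a median log2 fold change of 1.44. The family showed how much single tumours contribute. Gimap4 had 652, 175 and 280 TPM in the hv tumours T16, T8 and T15, but 2.10 to 4.03 TPM in the other 4 hv lymphomas and 0.520 to 3.50 TPM in the cr lymphomas, so the 4 other hv lymphomas lay in or just above the cr range. Gimap6 had 386, 133 and 233 TPM in the same 3 hv tumours, 42.2 to 72.9 TPM in the other 4 hv and 32.7 to 71.9 TPM in the cr lymphomas. Gimap7 and Gimap9 did not reach an unadjusted p under 0.05. Within lung 0 of 8 members did, beside 0.997% of all genes, and the lung median of 1.08 was 0.28 without hv T16. The same 3 hv tumours had the highest level of macrophage markers of all 14 lymphomas. As the mean log2 difference from the mean of the 14, less each lymphoma's own median over all tested genes, it was 1.30, 0.81 and 0.79 in T16, T8 and T15, against -0.12 to 0.44 in the other hv and -1.12 to 0.57 in the cr lymphomas. On that scale replication-dependent histones were at -1.62 and -1.51 and mitosis genes at -0.53 and -1.53 in T16 and T15, with T8 at -0.21 and 0.07. The part of these differences in the GIMAP values was not tested.

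**Figure D2:**
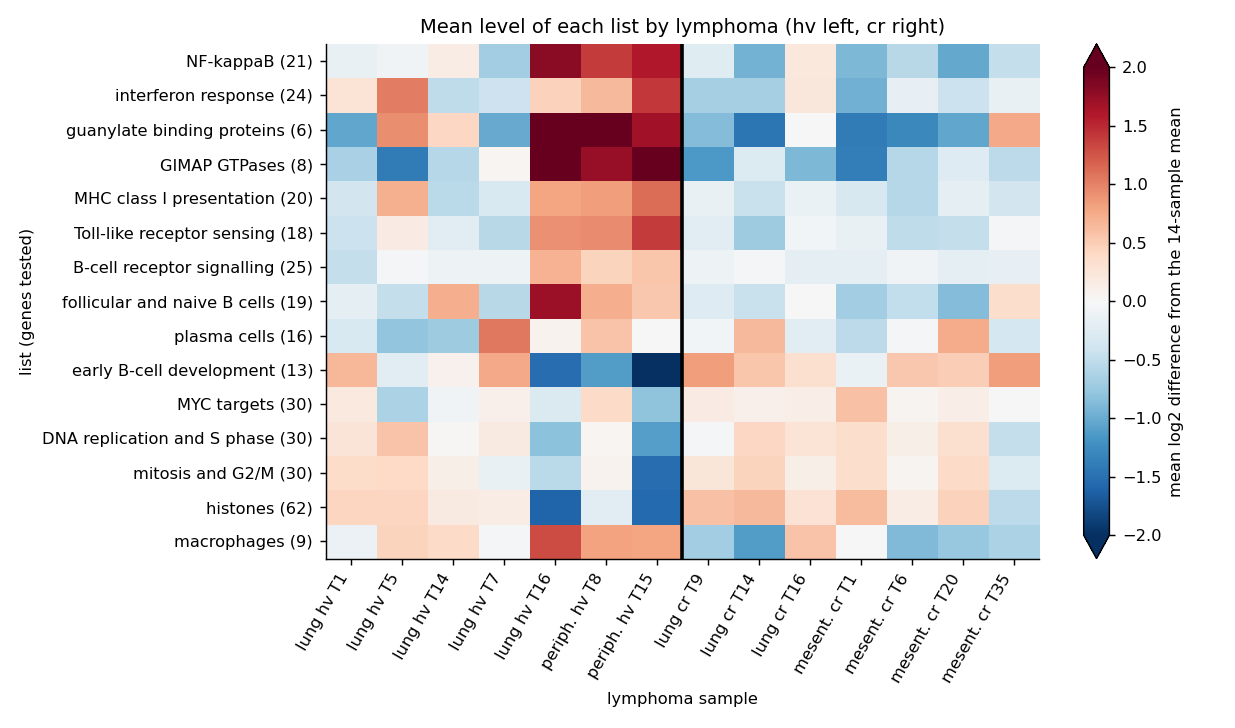
Mean level of each gene list in each lymphoma as the log2 difference from the mean of the 14 lymphomas, less the lymphoma's own median over all tested genes. The hv lymphomas are left of the black line and cr right of it, with the number of genes tested in brackets. Colours end at 2 and -2. The hv tumours T16, T8 and T15 are red for NF-kappaB, guanylate binding and GIMAP genes and blue for early B-cell genes. For NF-kappaB genes the hv tumours T1, T5, T14 and T7 lie within the cr range. T14 and T7 do so for interferon genes, and T1, T14 and T7 for guanylate binding genes.

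Upstream receptors had smaller differences. In Toll-like receptor sensing 10 of 18 tested genes had an unadjusted limma p under 0.05 with higher values in hv (11.4% of all genes did) and 0 with lower values, at a median log2 fold change of 0.76. Tlr7, the receptor for single-stranded RNA, had 0.690 to 49.7 TPM in hv (median 3.97) and 0.134 to 4.47 TPM in cr lymphomas (median 0.211). The kinase Irak1 had 48.6 to 128 TPM in hv (median 62.9) and 38.8 to 51.5 TPM in cr lymphomas (median 50.3), with all hv but T7 above every cr. Without the hv node tumour T8, 4 of the 18 reached an unadjusted p under 0.05, 5 did without hv lung T16, 6 without cr node T6, and 2 with median-of-ratios scaling. In B-cell receptor signalling 7 of 25 genes did, led by Prkcb, the kinase that links the receptor to NF-kappaB (0.99 ± 0.27), and Cd22, an inhibitory receptor (1.02 ± 0.32), while the kinases Syk (0.41 ± 0.23), Btk (0.10 ± 0.24) and Blk (0.04) were among the 18 that did not. Leaving out single tumours moved the count for B-cell receptor genes between 4 without hv T15 and 17 without hv lung T1. Within lung 0 of 18 Toll-like receptor and 0 of 25 B-cell receptor genes reached an unadjusted p under 0.05, beside 0.997% of all genes. The counts were also 0 of 18 and 0 of 25 with the 3 sites in the fit, beside 1.18%.

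Cytokine receptors had higher values in hv in 7 of 25 tested genes at an unadjusted limma p under 0.05, and in the family of interleukin receptors in 8 of 21, beside 11.4% of all genes. Without hv T16 or cr node T1, 5 of the 21 receptors did, and 10 did without hv T14. Within lung 0 of 20 receptors did, and 0 of 21 did with the 3 sites in the fit, beside 0.997% and 1.18% of all genes. Il2rg, the chain shared by several interleukin receptors, had 31.9 to 186 TPM in hv lymphomas (median 87.8) and 17.3 to 44.3 TPM in cr lymphomas (median 29.7), with 6 of 7 hv above all cr and a log2 fold change of 1.34 ± 0.35. Il10ra, the ligand-binding chain of the interleukin 10 receptor, had a log2 fold change of 1.23 ± 0.35 and Il21r one of 1.13 ± 0.45. Il9r was at 182, 13.5 and 224 TPM in the hv tumours T16, T8 and T15 and at 0.487 to 2.42 TPM in the other 4 hv, against 0.106 to 3.19 TPM in the cr lymphomas.

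Survival, homing and cell-cycle entry genes were mixed, with higher values in hv at an unadjusted p under 0.05 for 11.4% of all genes. Of 15 tested BCL2-family genes 4 (26.7%) had an unadjusted limma p under 0.05, all of them pro-survival and higher in hv: Mcl1 (0.82 ± 0.29), Bcl2 (0.92 ± 0.38), Bcl2a1b and Bcl2a1d (2.17 ± 0.85). The pro-death genes Bcl2l11 (-0.47), Bmf (-0.85) and Bax (0.27) were among the 11 that did not. Of the 15, 2 entered through hv alone, and the Bcl2a1 copies may share reads. The list level, defined as for NF-kappaB genes, was 0.757, 0.344 and 0.626 in hv T16, T8 and T15. It was -0.497 to 0.041 in the other hv and -0.322 to 0.013 in the cr lymphomas. Of 24 tested homing and trafficking receptors 6 had an unadjusted p under 0.05 with higher values in hv and 1, Ccr7, with lower values, at a median log2 fold change of 0.78. Gpr183, which guides B cells to the outer follicle, had 0.278 to 35.2 TPM in hv (median 2.02) and 0.0763 to 1.62 TPM in cr lymphomas (median 0.328). Of 18 G1 cyclins, cyclin-dependent kinases and inhibitors 2 did (11.1%), both higher in hv, a share near that of all genes. Ccnd2, the D-type cyclin of B-cell activation, had 0.297 to 42.0 TPM in hv (median 9.47) and 0.143 to 6.34 TPM in cr lymphomas (median 0.167), and the hv values fell into 4 lymphomas at 9.47 TPM or more (T14, T16, T8 and T15) and 3 below 1 TPM. Of 24 B-lineage transcription factors 6 (25%) had an unadjusted p under 0.05, all higher in hv, among them Tcf4 (1.19 ± 0.56), Pou2f2 (0.91 ± 0.37) and Bcl11a (0.86 ± 0.34), while Ebf1 (0.37 ± 0.38), Bach2 (0.04) and Irf4 (-0.27) were not among them. TRIM proteins, many of which restrict viruses, had 14 of 40 members with higher values in hv, among them Trim34a (1.81 ± 0.50) and Trim30a (1.68 ± 0.47). Of 10 serpins 6 did, 4 of the 10 having entered through hv alone, with Serpina3g at 2.21 to 332 TPM in hv (median 8.76) and 0.165 to 4.64 TPM in cr lymphomas (median 0.691). Within lung 0 of 15 BCL2-family, 0 of 22 homing and 0 of 15 G1 genes had an unadjusted limma p under 0.05. Neither did any of 23 B-lineage factors or 8 serpins, and 1 of 35 TRIM genes did, beside 0.997% of all genes.

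Growth and division genes did not separate the lines. Of 30 MYC targets, 30 ribosome biogenesis genes, 30 genes of DNA replication and S phase, 30 of mitosis and G2/M, 25 of oxidative phosphorylation and 30 ribosomal proteins, 0 reached an unadjusted limma p under 0.05 in either direction, beside 12% of all genes, and 0 passed the adjusted threshold. Their median log2 fold changes were -0.12, -0.03, -0.04, -0.11, -0.02 and -0.04 in that order, below the median of 0.21 for all genes. Single tumours set the sign of some medians: without hv T15 those of MYC targets, replication and mitosis were 0.01, 0.12 and 0.10, and replication was at 0.10 without hv T16. Without cr lung T14 or cr node T20 replication was at 0.02 and 0.01. With median-of-ratios scaling, 6 of the 30 MYC targets and 3 of the 30 mitosis genes had an unadjusted p under 0.05 with lower values in hv. On that scale 7.78% of all genes had one in either direction. Histone genes had 2 of 62 members with lower values in hv at an unadjusted p under 0.05, beside 0.615% of all genes, and a median of -0.42. With median-of-ratios scaling 23 of 62 did, beside 7.78% of all genes in either direction. Leaving out 1 lymphoma gave 0 members (hv T16 or T15, or any cr lung tumour) to 10 (hv T5 or cr T35) and a median of -0.20 (hv T16) to -0.59 (cr T35). Hist1h2ac, a histone H2A gene of the large cluster on chromosome 13, had 176 to 803 TPM in hv (median 541) and 445 to 922 TPM in cr lymphomas (median 757).

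**Figure D3:**
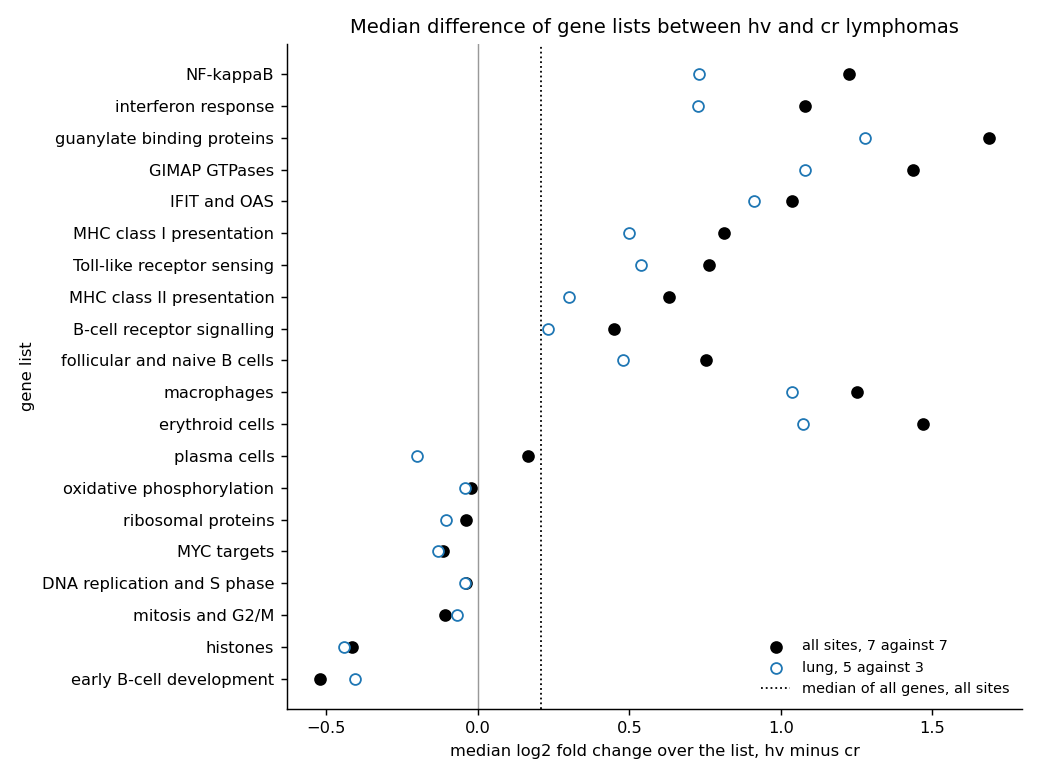
Median log2 fold change, hv minus cr, of each gene list with all sites (filled) and within lung (open); the dotted line is the median of all genes with all sites, 0.21. NF-kappaB, interferon, guanylate binding and GIMAP lists lie right of it in both comparisons, from 0.73 to 1.69, and histone and early B-cell genes lie left of 0.

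With all sites, macrophage and red-cell markers also had higher values in hv lymphomas. Of 9 tested macrophage markers 7 had an unadjusted limma p under 0.05 with higher values in hv (11.4% of all genes did), though 4 of the 9 entered through hv alone. The 13 listed markers summed to 35.8 to 314 TPM in hv lymphomas (median 92.2) and 12.3 to 69.9 TPM in cr lymphomas (median 19.9). C1qa, a complement subunit made by tissue macrophages, had 3.43 to 21.5 TPM in hv (median 5.29) and 0.767 to 9.73 TPM in cr lymphomas (median 1.45), and Csf1r, the receptor for the macrophage growth factor, had 0.686 to 6.08 TPM in hv (median 2.60) and 0.0904 to 1.94 TPM in cr lymphomas (median 0.371). Fcgr1 and Cd163, both defining macrophage markers, were below 1 TPM in all 14 lymphomas. Of 5 tested erythroid markers 3 had an unadjusted limma p under 0.05 with higher values in hv, beside 11.4% of all genes. The 9 listed markers summed to 51.3 to 220.4 TPM in hv (median 170.0) and 16.8 to 120.4 TPM in cr lymphomas (median 68.3). Within lung 0 of 9 macrophage and 0 of 4 erythroid markers had such a p, beside 0.997% of all genes. With the 3 sites in the fit 3 of 9 and 0 of 5 did, beside 1.18%. Neutrophil markers summed to 1.96 to 292 TPM in hv (median 37.9) and 0.518 to 151 TPM in cr lymphomas (median 4.95). The part of these cells in the differences of the interferon, NF-kappaB, Toll-like receptor and MHC class I genes was not tested.

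Early B-cell genes had a median log2 fold change of -0.52 over 13 tested members, and 1 of them, Cd93, a marker of transitional B cells, had an unadjusted limma p under 0.05 (-1.75 ± 0.79). The low values came from 3 tumours. Vpreb3, which associates with the pre-B-cell receptor, had 7.83, 20.6 and 0.529 TPM in the hv tumours T16, T8 and T15, against 328 to 525 TPM in the other 4 hv and 201 to 680 TPM in the cr lymphomas. Myb, a transcription factor of lymphoid progenitors, had 0.624, 6.79 and 2.10 TPM in the same 3 tumours, against 62.0 to 111 TPM in the other 4 hv and 27.7 to 97.3 TPM in the cr lymphomas, and Bcl7a had 12.8, 6.47 and 5.13 TPM against 51.5 to 88.9 TPM in the other hv and 26.96 to 74.2 TPM in the cr lymphomas. Conversely, these 3 held the highest values of Ltb (245, 105 and 425 TPM), Dock10 (133, 77.1 and 166 TPM), Traf1 (58.2, 10.02 and 54.4 TPM) and Bcl2a1b (99.5, 39.8 and 102 TPM) among all 14 lymphomas. The 3 also had the highest macrophage marker levels of the 14 lymphomas, and T16 and T15 the lowest histone levels. The 3 were noticed from their values, so their difference from the rest is a description and has no test.

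The hv lung tumour T7 went the other way. Over the 9431 genes compared, its deviations from the mean of the lymphomas correlated with those of the cr tumours T14 of lung and T6 and T20 of mesenteric node, at r = 0.622, 0.507 and 0.632 across genes, which are not independent replicates. With cr T9 and T16 of lung and cr T1 and T35 of mesenteric node r was -0.077, -0.394, -0.109 and -0.217. Syndecan-1 (Sdc1), a plasma-cell surface protein, had 31.9 TPM in hv T7 and 35.9, 17.6 and 46.4 TPM in those cr tumours, against 0.265 to 4.74 TPM in the other 10 lymphomas. The interleukin 7 receptor Il7r had 36.6 TPM in hv T7 and 16.6, 19.0 and 41.7 TPM in the cr tumours, against 0.0177 to 7.02 TPM in the other 10, and the transcription factor Lef1 had 15.9 TPM and 14.9, 16.1 and 7.08 TPM, against 0.325 to 2.91 TPM. Tlr1, a receptor for bacterial lipopeptides, was nearly silent in the 4 at 0.274 TPM in hv T7 and 0.284, 0.0907 and 0.159 TPM in the cr tumours, with 16.7 to 61.7 TPM in the other 10, and the ectoenzyme Cd38 had 1.56 TPM and 1.43, 0.788 and 0.645 TPM, against 18.7 to 115 TPM. T cells also express Il7r and Lef1, and the 11 tested T-cell markers lay above the mean in these 4. Il7r is itself 1 of the 11 and was described for its high values in the 4, so their level is not separate from it. Their mean log2 difference from the mean of the 14, less each lymphoma's median over all tested genes, was 1.37 in hv T7. It was 1.32, 0.57 and 0.94 in cr T14, T6 and T20. The other hv lymphomas were at -0.89 to 0.70 and the other cr lymphomas at -0.76 to -0.21. Of the 15 listed T-cell markers only Cd3e was below 1 TPM in all 14. Plasma-cell genes were at 1.06 in hv T7 and 0.65, -0.03 and 0.74 in cr T14, T6 and T20, against -0.79 to 0.56 in the other hv and -0.53 to -0.05 in the other cr lymphomas. The part of such cells in the likeness of the 4 was not tested. These 4 tumours were also picked by their values and carry no test. The tumour with the highest correlation was of the same line for 3 of 7 hv and 1 of 7 cr lymphomas.

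Myc and the tumour suppressor genes had overlapping ranges in the lines. Of 37 tested single genes of lymphoma and B-cell stage, 6 had an unadjusted limma p under 0.05 with higher values in hv, among them Bcl2, Mcl1 and Ccnd2, and 1, Cd93, with lower values (18.9% in all, beside 12% of all genes). Myc itself had 78.8 to 294 TPM in hv (median 141) and 114 to 362 TPM in cr lymphomas (median 197), with a log2 fold change of -0.46 ± 0.33 and an unadjusted limma p of 0.185. Trp53, the p53 tumour suppressor, was at 0.275 TPM in hv T1 and 1.43 TPM in hv T14, both of lung, and at 0.409 TPM in cr lung T16, with 53.8 to 76.9 TPM in the other 5 hv and 41.8 to 84.5 TPM in the other 6 cr lymphomas. Mtap, an enzyme gene next to Cdkn2a on chromosome 4, was at 0.161 TPM in hv T7 and at 0.190, 0.162, 0.176 and 0.220 TPM in the cr tumours T14 of lung and T1, T6 and T20 of mesenteric node, and at 9.43 to 37.4 TPM in the other 6 hv and 17.5 to 28.01 TPM in the other 3 cr lymphomas. Cdkn2a, which encodes the p16 and p19Arf brakes on division, had 108, 124, 80.5, 0 and 7.46 TPM in hv lung T1, T5, T14, T7 and T16 and 84.4 and 1.90 TPM in hv node T8 and T15, against 1.66, 0 and 120 TPM in cr lung T9, T14 and T16 and 0.0797, 0, 0.450 and 57.8 TPM in cr node T1, T6, T20 and T35. All 5 lymphomas with Mtap near 0 had Cdkn2a at 0.450 TPM or less, and the 3 with low Trp53 had it at 80.5 TPM or more. The log2 fold changes of Mtap (1.78 ± 0.96) and Cdkn2a (2.32 ± 1.43) had unadjusted limma p-values of 0.0831 and 0.126.

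**Figure D4:**
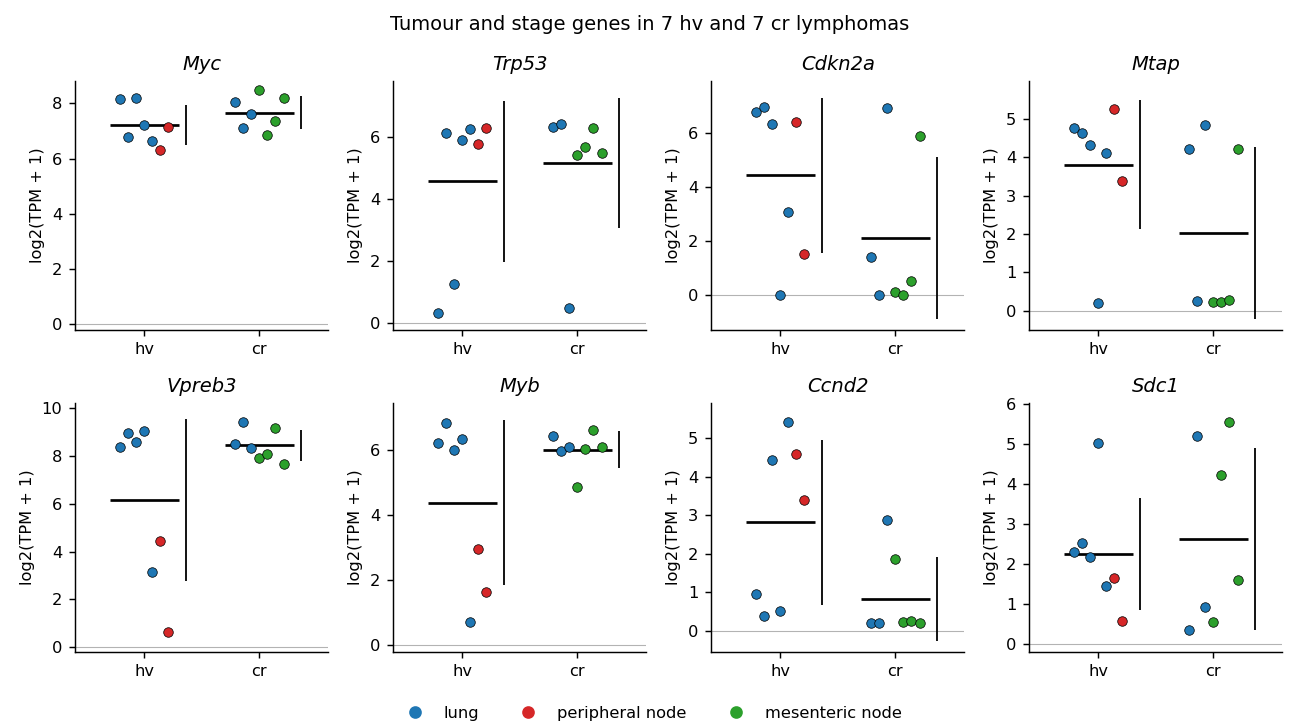
Level of 8 tumour and stage genes, as log2(TPM + 1), in each of the 7 hv and 7 cr lymphomas. Points are lymphomas coloured by site, the horizontal line is the mean and the bar beside it ± 1 SD; low Trp53 occurs in 2 hv and 1 cr lymphoma, low Mtap in 1 hv and 4 cr lymphomas, and low Vpreb3 and Myb in 3 hv lymphomas.

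Variable segments showed that most lymphomas were dominated by 1 heavy chain. The leading Ighv segment held 59.4% to 99.7% of Ighv TPM in hv lymphomas (median 94.7%) and 90.6% to 99.9% in cr lymphomas (median 96.9%), and it exceeded 80% in 5 of 7 hv and 7 of 7 cr lymphomas. The exceptions were hv lung T7 at 59.4% for Ighv2-2 and hv node T8 at 70.7% for Ighv6-3. The 14 lymphomas used 11 leading Ighv segments, and Ighv1-64 led in hv T1 and T14 of lung and in cr T1 of mesenteric node. Among the 4 tumours that resembled each other the leading segments differed: Ighv2-2 in hv T7 and Ighv14-2, Ighv1-39 and Ighv6-3 in cr T14, T6 and T20. In the light chain Igkv1-135 led in 3 hv and 2 cr lymphomas, and hv node T8 held 5802 TPM of the lambda segment Iglv1, against 4.19 to 365 TPM in the other 13 lymphomas.

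Constant-region shares did not differ beyond the spread of the lymphomas. Ighm held 89.3 ± 8.69% of heavy-chain constant TPM in hv and 93.0 ± 5.23% in cr lymphomas (SD, n = 7 each; exact two-sided permutation p = 0.358, adjusted p = 0.573 over 8 shares). The lambda share of light-chain constant TPM was 16.2 ± 8.50% in hv and 8.16 ± 5.39% in cr lymphomas (SD, n = 7 each; exact two-sided permutation p = 0.0571, adjusted p = 0.333). In lung the lambda shares were 12.6 ± 6.83% in the 5 hv and 10.2 ± 1.99% in the 3 cr lymphomas (SD; exact two-sided permutation p = 0.625, adjusted p = 0.804). The smallest p that 5 against 3 allows is 0.0179. As single genes, Iglc2 had 188 to 1479 TPM in hv (median 650) and 61.0 to 456 TPM in cr lymphomas (median 273), and Ighg3, the constant region of IgG3, had a log2 fold change of 2.29 ± 0.96 (limma unadjusted p = 0.0302, adjusted p = 0.383).

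Within lung 1 gene passed the adjusted threshold. Of 11236 genes tested in the 5 hv and 3 cr lung lymphomas, 1 (0.0089%) had an adjusted limma p under 0.05, and 112 (0.997%) had an unadjusted p under 0.05, of which 97 were higher (0.863%) and 15 lower in hv (0.133%). The gene was Gm8369, a predicted gene at chr19:11485938-11512577 on the plus strand of GRCm38, among the Ms4a genes and beside Ms4a6b. It had 104, 113, 141, 120.0 and 157 TPM in hv lung T1, T5, T14, T7 and T16, against 30.5, 28.1 and 33.2 TPM in cr lung T9, T14 and T16. Every hv lung lymphoma was above every cr lung lymphoma, with a log2 fold change of 2.00 ± 0.20 (limma adjusted p = 0.021). Outside lung the gene did not follow the line, since it had 34.5 and 44.5 TPM in the hv node tumours T8 and T15 and 117, 52.5, 35.6 and 222 TPM in the cr node tumours T1, T6, T20 and T35, and with all sites its log2 fold change was 0.72 ± 0.48 (limma adjusted p = 0.524). As a possible copy of an Ms4a gene it may share reads with its neighbours. Its adjusted p was above 0.05 in 10 of 17 other settings, with a range of 0.0132 to 0.262 in limma over all of them. These include the omission of hv T5, T7 or T14 or of any 1 of the cr lung tumours, and its log2 fold change lay between 1.79 and 2.25 throughout.

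In lung 137 genes (1.22%) had every hv lymphoma above every cr lymphoma and 20 (0.178%) had every hv below every cr. With median-of-ratios scaling the genes at unadjusted p under 0.05 in lung numbered 52 higher and 80 lower in hv, so the split to one side did not hold on that scale. Ms4a6b had 5.68 to 31.0 TPM in hv lung lymphomas (median 13.8) and 2.44 to 5.19 TPM in cr lung lymphomas (median 4.03), and its log2 fold change was 1.604 ± 0.47 (limma unadjusted p = 0.0068, adjusted p = 0.998). Zfp781 (2.42 ± 0.66), Mbd5 (1.11 ± 0.32), Csnk1g1 (0.87 ± 0.26), Mindy3 (0.85 ± 0.27), Dusp16 (1.20 ± 0.39), Znrd1 (0.79 ± 0.26) and Zfp182 (2.18 ± 0.71) were the others of the 8 higher genes with the smallest p. Among the lower ones, Plaur, the urokinase receptor, had 5.52 to 17.1 TPM in hv (median 11.6) and 21.6 to 38.9 TPM in cr lung lymphomas (median 31.8), and Rgs2, a brake on G-protein signalling, had 30.9 to 155 TPM in hv (median 111) and 183 to 617 TPM in cr lung lymphomas (median 213), with no overlap in either. Fosb (-1.54 ± 0.55), an immediate early gene, Ppp1r15a (-0.99 ± 0.37), a stress-response phosphatase subunit, Plk2 (-2.79 ± 1.05), Fam43a (-0.87 ± 0.29), Igsf8 (-1.13 ± 0.46) and Dnajb9 (-0.91 ± 0.38) had lower values in hv lung lymphomas too, and none of these passed the adjusted threshold.

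Differences were spread over the genome. The median log2 fold change by chromosome ran from 0.07 on chromosome 1 to 0.31 on chromosome 19, and the share of tested genes at an unadjusted limma p under 0.05 was highest on chromosome 9 (19.41%) and chromosome 19 (15.89%), beside 12% over all. Single tumours departed from the rest over whole chromosomes: the genes of chromosome X stood 0.578 higher and those of chromosome 13 stood 0.503 lower (medians of log2 deviations) in hv lung T14, and those of chromosome 17 stood 0.522 higher in hv node T15. In cr node T35 the deviations were 0.492 on chromosome 5 and 0.431 on chromosome 4, and in cr lung T16 chromosome 19 was at -0.528. Of all 14 lymphomas hv T7, hv T8, cr T6 and cr T20 had no chromosome past 0.25 in either direction. What lies under these shifts was not tested.

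**Figure D5:**
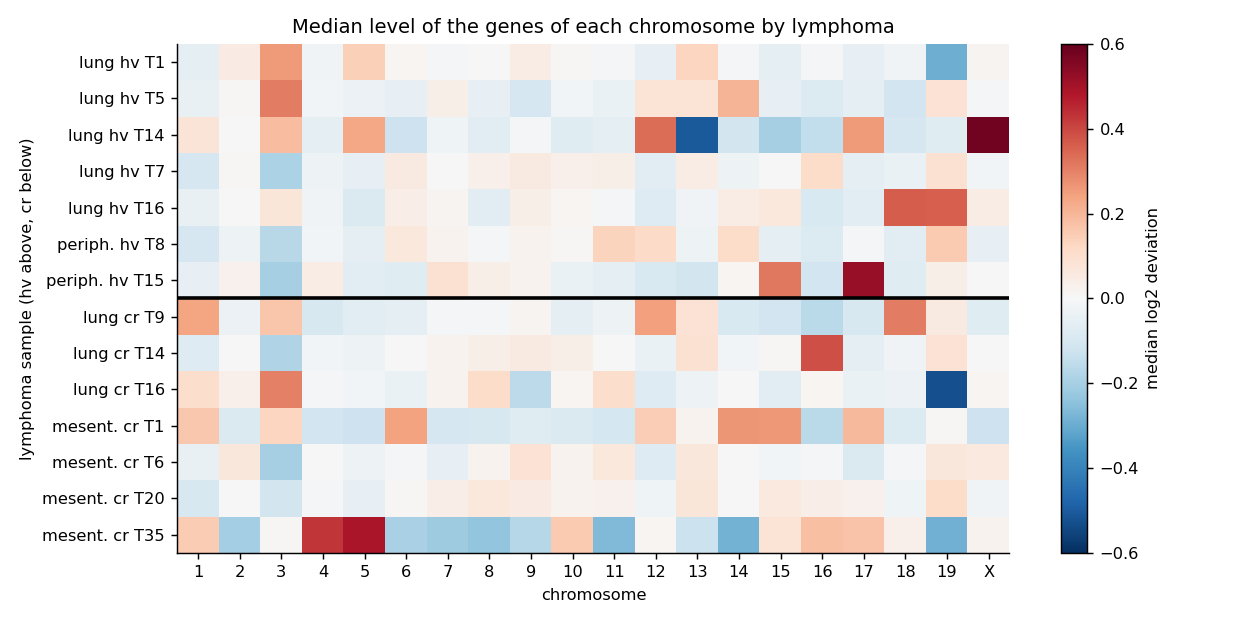
Median log2 deviation of the tested genes of each chromosome in each lymphoma, from each gene's median over the 14 and after removing the lymphoma's own median, hv above the black line and cr below. The strongest departures are chromosome X (0.578) and 13 (-0.503) in hv lung T14, 17 (0.522) in hv node T15, 5 (0.492) in cr node T35 and 19 (-0.528) in cr lung T16.

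Spleen B cells of the same lines were set beside the lymphomas, with 1 hv and 1 cr sample resting and 1 of each given LPS for 2 days, so that these pairs have no replicate check. Of the 1440 genes at unadjusted p under 0.05, 311 (21.6%) differed in the same direction between the resting pair and 1042 (72.36%) between the LPS pair, where the medians over all tested genes were -0.13 and 0.32. Since 94.86% of the 1440 were higher in hv, these shares mostly count how many of them were higher in hv in each pair. The same share over all tested genes was not computed, so they are not read as a likeness to either state. In 7 of the 1440 the spleen pairs differed over 2-fold in the direction of the lymphomas in both states. Of these Gm4737, a predicted gene at chr16:46152997-46155077 on the minus strand, had 42.8, 0, 36.05, 0.675 and 68.1 TPM in hv lung T1, T5, T14, T7 and T16 and 84.5 and 25.4 TPM in hv node T8 and T15, against 1.98, 0 and 0 TPM in cr lung T9, T14 and T16 and 0, 0.969, 0 and 0 TPM in cr node T1, T6, T20 and T35. The spleen B cells had 21.5 TPM resting and 28.7 TPM with LPS in hv, against 0.916 and 1.24 TPM in cr. The hv lymphomas T5 and T7 thus lay within the cr range, and the log2 fold change was 3.73 ± 0.92 (limma unadjusted p = 0.00102, adjusted p = 0.37). The others were Tmsb15b2, higher in hv, and the predicted genes Gm10715, Gm21738, Gm10720, Gm10721 and Gm17535, lower in hv, of which Gm10721 had 0 to 13.8 TPM in hv lymphomas (median 1.80) and 0.378 to 1992 TPM in cr lymphomas (median 116). Gm10715, Gm10720, Gm10721 and Gm17535 lie together at chr9:3013140-3038316, so the 7 are not 7 separate loci, and whether these neighbours share reads was not tested. How many of all tested genes met the same 2-fold rule was not counted. Relb, Ifit3 and Gbp3 did not follow the pattern of the 7: in resting spleen B cells Relb had 24.7 TPM in hv and 48.9 TPM in cr, Ifit3 had 17.5 TPM in hv and 73.2 TPM in cr, and Gbp3 had 40.8 TPM in both. With LPS, Relb had 17.8 TPM in hv and 13.5 TPM in cr, Ifit3 had 2.67 TPM in hv and 2.42 TPM in cr, and Gbp3 had 47.7 TPM in hv and 35.3 TPM in cr. The median log2 difference of the NF-kappaB list, hv minus cr, was -0.21 resting and 0.55 with LPS, and that of the interferon list was -0.77 and -0.02.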

How the data were processed

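Cells were enriched for B220, per the series' design text, and libraries were made from rRNA-depleted total RNA with a stranded kit and read as paired ends, per the labels' protocols. The authors deposited TPM per transcript, made with kallisto 0.43 on mm10/GRCm38 per the submitters' processing notes. The labels name neither the annotation nor the strand setting. The table's length and effective length per transcript (a score in bases, as the authors deposited them) served only to estimate depth from the steps of low TPM values, of which 61.2% to 71.8% came out whole within 0.02. The 88198 transcripts were summed to 30735 genes, 740 without a symbol. Of the columns of per-sample values, 0 belong to other series. Lymphomas were grouped by line and fitted with limma 3.58.1 (R 4.3.3; trend and robust settings) on log2(TPM + 1), a scale that understates the change of low genes; genes needed 1 TPM in 4 samples, and p-values were Benjamini-Hochberg adjusted over all genes tested. A simulation of both fits recovered 49 of 100 genes changed by 1 and 95 of 100 changed by 3 on the log2 scale in the 7 against 7 design (8971 genes), and 17 of 100 and 86 of 96 in lung (8944 genes). Of its unchanged genes 5 of 8771 and 7 of 8748 were called. It drew genes independently of each other, held only genes with a mean of at least 5 TPM, and included strong changes by design. Its rates are therefore not those of the real fits. Shares were tested by exact permutation. Named genes were the 8 of smallest p each way with a mean of at least 5 TPM in the higher line, without predicted genes, plus up to 4 per list, a chosen set of single genes, and genes described after their values were seen. Genes and lists were chosen with earlier results of these data known. Alternatives covered pseudocount, filter, scaling, site, name style and left-out lymphomas. Some genes of the lists are counted but not reported here by name.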

Additional observations from a re-analysis of the deposited data

Results flagged for a closer look

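Single lymphomas stood far from the rest of their line in 21 of 154 groups of 7 examined. Chance flags about 1 in 20 groups, but several of the genes, among them Mtap, Tlr1, Cd38 and Lef1, were described because 1 or a few tumours stood out, so the count is not read against that rate. In hv lung T7, Nfkbia (35.1 TPM), Birc3 (56.7 TPM), Mtap (0.161 TPM), Tlr1 (0.274 TPM) and Cd38 (1.56 TPM) were far below the other hv lymphomas, while Lef1 (15.9 TPM) and the Igha share of heavy-chain constant TPM (3.94%) were far above. In hv lung T16 C1qa was far above (21.5 TPM), and in hv node T8 Zfp781 was listed at 0 TPM. In cr lung T16, Cd83 (40.9 TPM), C1qa (9.73 TPM), Usp18 (1.56 TPM) and the Ighg3 share (0.437%) were far above the other cr lymphomas, and Prodh (7.34 TPM) and Trp53 (0.409 TPM) far below. In cr node T1, Myb (27.7 TPM) was far below. In cr node T35, Irak1 (38.8 TPM) and Plaur (2.18 TPM) were far below and the Ighd share (13.9%) far above. In cr node T20 the Ighg1 share (0.263%) and the Igha share (3.81%) were far above.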

How the results depend on the processing

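With all sites, the number of genes past the adjusted limma threshold was 0 except without a filter on low values, where 1 gene (Gm37097) passed, and without hv T7, where 7 did, so leaving out 1 lymphoma gave 0 to 7. The 1440 genes at unadjusted p under 0.05 became 931 with median-of-ratios scaling, 142 with line and 3 sites in the fit, 836 without the 2 cr libraries rich in Gm10800 or Gm20594, and 981 to 2120 when 1 lymphoma was left out. In lung, 0 genes passed without a filter, with median-of-ratios scaling, without the trend and robust settings, or in the joined name style only, and 0 to 1 passed when 1 lymphoma was left out. The 112 genes at unadjusted p under 0.05 in lung became 310 without a filter, 717 in the joined name style and 54 (without cr T9) to 604 (without hv T7) when 1 lymphoma was left out. The causes of these moves were not tested. Gm8369 kept its direction in 17 settings (1.79 to 2.25), and the fits with 3 sites, the separated style and without 2 libraries were chosen after seeing the data. Tumour numbers 1, 14 and 16 occur in both lines, but samples of 1 number did not deviate together (r across genes 0.17, -0.198 and 0.045). A fit with the number as a replicate block kept only the lymphomas of shared numbers, 14 and 16 in lung, and dropped all others. In it 540 genes with all sites and 522 in lung had an unadjusted limma p under 0.05, and 30 in lung passed the adjusted threshold. With so few lymphomas left, these counts cannot be set beside those of the full comparisons. No constant-region share crossed its threshold in any setting. In the simulation, differences of 1 on the log2 scale were recovered for 49 of 100 genes with all sites and 17 of 100 in lung, so smaller differences can be missed at this number of lymphomas.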
